A study of Mus musculus with 10 samples.

Results

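The Hox genes were followed through an ATAC-seq series of Myc-CaP cells, which were derived from a prostate tumor of a male FVB/NJ mouse. Protein-coding genes of the GENCODE M21 annotation (mm10) named Hoxa, Hoxb, Hoxc or Hoxd with a number were taken, 39 of 21938 protein-coding genes, Hoxb13 included. The accessible regions of each cluster were those overlapping the stretch from its first to its last gene with 2 kb on either side. There were 101 such regions after merging the lists, of 211107 in the genome.

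HOX proteins are homeodomain transcription factors that give cells their position along the body axis. Their genes lie in 4 clusters, and the order of the genes along a cluster, from paralogue 1 to paralogue 13, follows the order in which they are used from head to tail. Clusters that are not in use are held by Polycomb complexes, Trithorax complexes oppose this, and HOX proteins bind DNA with PBX and MEIS partners. Hoxb13 is the paralogue best known in the adult prostate epithelium, and Hoxa13 and Hoxd13 take part in forming the prostate.

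Per the labels, the 5 groups were untreated cells (Ctrl), cells given oxaliplatin at 2 µM (Oxali), cells given cisplatin at 2 µM (Cispl), cells given 1000 pg of interferon-γ, which the study's methods give per ml (IFNγ), and cells given both oxaliplatin at 2 µM and IFNγ (Oxali + IFNγ). Treatment lasted 48 h. Myc-CaP came from a tumor of a mouse in which the probasin promoter drives a MYC transgene in prostate epithelium, and all groups carry it, so the data describe 1 cell line. Each group had 2 libraries, which the authors pooled before they called regions. With 1 pooled list per group there was no replicate, so no standard deviation and no test against replicate spread could be given for any value, and intervals cover counting error only.

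A level is the number of reads piled up at the summit of a region, divided by the genome background of its list, so that lists of unequal depth can be set side by side. The genome backgrounds were 9.62 to 13.8, which puts the depth of the lists between 79.3% and 113% of Ctrl. Strong regions are those whose q-value did not exceed 0.01. The lowest level of any Hox region was 1.77, and where no region was listed the level is not known, only that it stayed under what the peak caller could list. The Cispl list ends at a −log10 p of 2.99 and the others at 2.00, so its weakest regions are missing.

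Of 8 luminal prostate markers 3 had a strong region within 1 kb of a start site in all 5 lists, Foxa1 and Krt8 among them. Krt18 had one in Ctrl and Oxali and Epcam in IFNγ, while 3, Cdh1 and Tmprss2 among them, had none in any list. Of 11 markers of other cell types, Pdgfra, Col1a1 and Chga had a strong region in all 5 lists and between 7 and 8 of the 11 had none in a given list. Over all genes 57.6% to 61.7% had a strong region at a coding start site, so neither set of markers was called more often than genes at large.

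Most Hox start sites were closed, and the open ones were scattered over the clusters and did not form 1 block. In Ctrl 11 of 39 genes had a strong region within 1 kb of the start site, against 53.7% of all 21853 protein-coding genes with an annotated start. The number was 11 after Oxali, 10 after Cispl, 10 after IFNγ and 13 after Oxali + IFNγ, where 55.7%, 56.7%, 53.2% and 56.8% of all genes had one. The genes open in every list numbered 10 and included Hoxa3, Hoxa4, Hoxa7, Hoxb9, Hoxb13, Hoxc5, Hoxc8, Hoxd8 and Hoxd9. Hoxa9, Hoxa11, Hoxc4, Hoxc6 and Hoxc9 were open in some lists only. The other 24 had no region at the start site used in any list. The Hoxa3 start site stands apart from the gene: it is that of a long transcript, 40466 bp upstream of the start codon, between Hoxa6 and Hoxa7. The nearer coding start of Hoxa3, 11206 bp from the start codon, had no region within 1 kb in any list. With that start in its place the counts were 10 in Ctrl, 10 after Oxali, 9 after Cispl, 9 after IFNγ and 12 after Oxali + IFNγ. Hoxd3 has a distal start too, 32085 bp from its start codon, where the level was 32.1 in Ctrl, but its nearer principal start was the one used. Hoxa9, Hoxa10 and Hoxb6 likewise have another coding start with a strong region in every list, which was not the one used. Counting any coding start site, 14 Hox genes were open in Ctrl, 15 after Oxali, 14 after Cispl, 14 after IFNγ and 17 after Oxali + IFNγ, against 58.1%, 60.5%, 61.3%, 57.6% and 61.7% of all genes.

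Among paralogues 1 to 3, 2 of 8 genes were open in each list, which counts Hoxa3 at its distal start. Among paralogues 4 to 8, 5 of 15 were open in Ctrl, Oxali, Cispl and IFNγ and 7 after Oxali + IFNγ. Among paralogues 9 to 13, 4 of 16 were open in Ctrl, and paralogue 9 held 3 of them, Hoxa9, Hoxb9 and Hoxd9. Of the 4 genes of paralogue 13, Hoxb13 was open in every list, and Hoxa13, Hoxc13 and Hoxd13 had no region at their start sites in any.

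**Figure D1:**
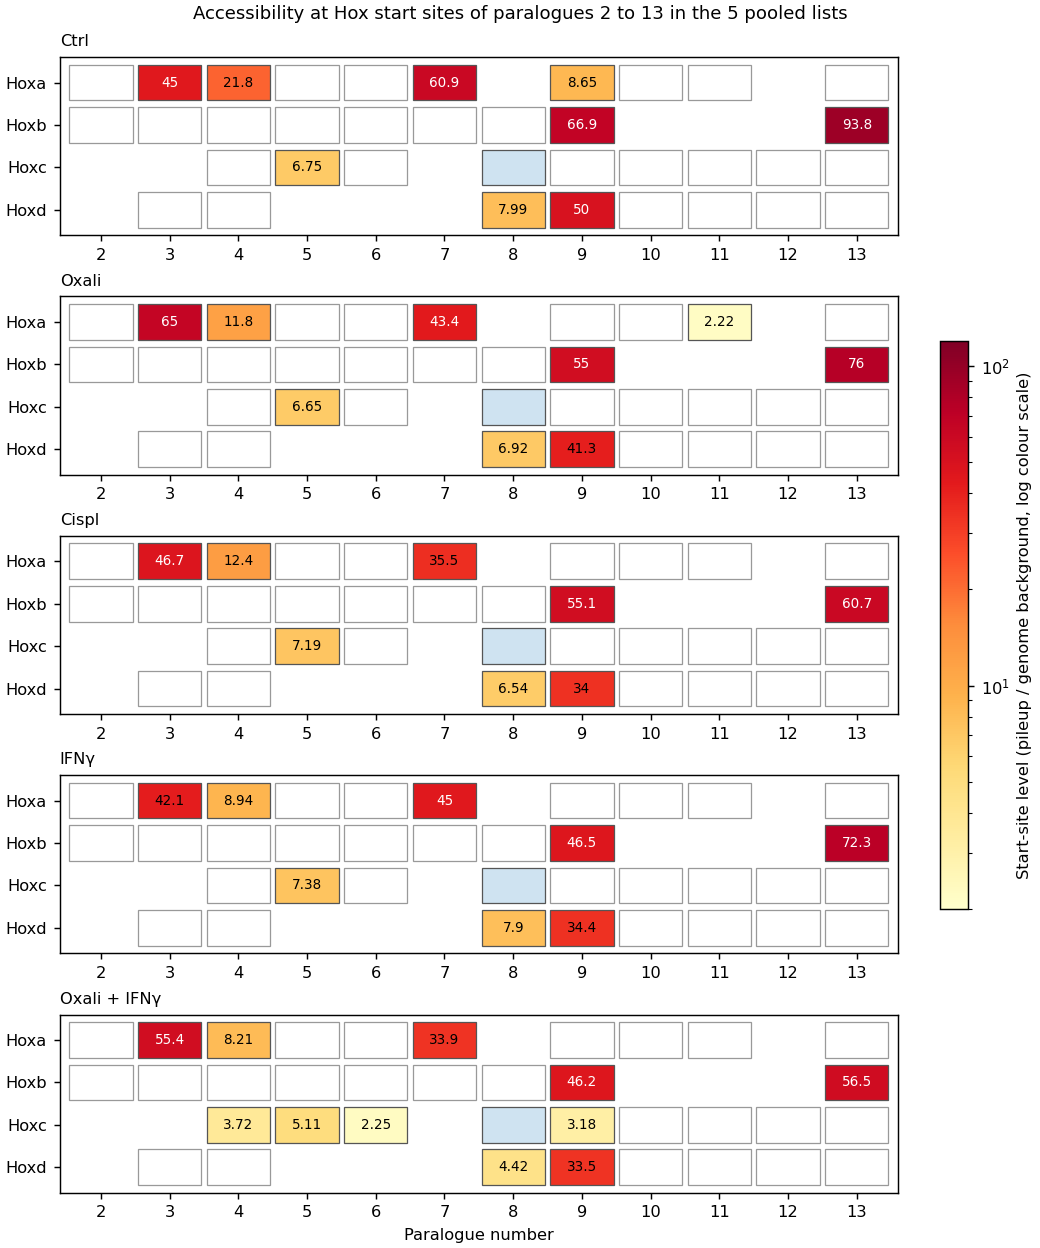
Start-site level of the Hox genes of paralogues 2 to 13 by cluster (rows) and paralogue number (columns), 1 panel for each pooled list. Colored boxes with a number hold a region and its level, pale blue boxes hold a strong region whose summit lies over 1 kb from the start site, white boxes hold none, and gaps are paralogues the mouse lacks; Hoxb13 at 93.8 is the highest shown in Ctrl.

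Hoxb13 had a start-site level of 93.8 in Ctrl, 76.0 after Oxali, 60.7 after Cispl, 72.3 after IFNγ and 56.5 after Oxali + IFNγ. The Ctrl list was the highest and the combined treatment the lowest. In Ctrl this level lay at percentile 50.6 of the 11615 protein-coding start sites that had a summit within 1 kb, and the median of those was 92.6. Hoxb13 stands 74.0 kb from the next Hox gene, Hoxb9, and the stretch between them held regions of its own, some of them within the gene Gm53. One at chr11:96202721-96203987, 9034 bp downstream of the Hoxb13 start, had a level of 62.4 in Ctrl, 51.5 after Oxali, 48.6 after Cispl, 46.4 after IFNγ and 44.0 after Oxali + IFNγ.

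Hoxb9, a posterior gene of thoracic patterning, had 66.9 in Ctrl, 55.0 after Oxali, 55.1 after Cispl, 46.5 after IFNγ and 46.2 after Oxali + IFNγ. Hoxa7 had 60.9 in Ctrl, 43.4 after Oxali, 35.5 after Cispl, 45.0 after IFNγ and 33.9 after Oxali + IFNγ. Hoxd9 had a pileup of 607 in Ctrl, where Hoxa7 had 739, and its level was 41.3 after Oxali, 34.0 after Cispl, 34.4 after IFNγ and 33.5 after Oxali + IFNγ. In each of these 3 genes every treated list lay below Ctrl, which at Hoxd9 shows in log2 ratios of −0.27, −0.56, −0.54 and −0.58.

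The distal Hoxa3 start, which lies nearer to Hoxa7 than to the Hoxa3 coding exons, was ordered otherwise, with 45.0 in Ctrl, 65.0 after Oxali, 46.7 after Cispl, 42.1 after IFNγ and 55.4 after Oxali + IFNγ. Both lists with oxaliplatin lay above Ctrl. Hoxa4 had 21.8 in Ctrl, 11.8 after Oxali, 12.4 after Cispl, 8.94 after IFNγ and 8.21 after Oxali + IFNγ. Hoxd8 and Hoxc5 were faint throughout, at 4.42 to 7.99 and at 5.11 to 7.38.

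The call at Hoxa9 turned on where 1 region ended and on which start was used. The main Hoxa9 region, chr6:52225631-52226349, was called in all 5 lists with pileups of 318 in Ctrl, 214 after Oxali, 219 after Cispl, 175 after IFNγ and 210 after Oxali + IFNγ. It lies just beyond 1 kb from the start site used and holds another Hoxa9 coding start, 85 bp from its start codon, which was thus open in every list. A second piece of 150 bp in Ctrl, chr6:52226407-52226556 with a level of 8.65, reached into that distance and was not called elsewhere. It ended 76 to 93 bp from the nearest region of the treated lists.

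Of the 24 genes without a region at the start site, 12 had none within 2 kb of the gene either, in any list. They were Hoxa5 and Hoxa6, Hoxb1 to Hoxb5 and Hoxb8, Hoxc11 and Hoxc12, Hoxd1 and Hoxd10. Hoxb1, Hoxb2, Hoxb3, Hoxb4 and Hoxb5 are neighbors, and nothing was listed from the Hoxb4 start to the end of the cluster. The other 12 genes had a region nearby but not at the start site. Hoxa2, for instance, had a region in its window with a level of 53.8 in Ctrl, which lay downstream of it. Hoxa13 had one at 6.59 in Ctrl, and Hoxc13 one at 4.42 after Oxali + IFNγ only.

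The closed Hox start sites were not poor in CpG, the dinucleotide that marks most open promoters. Over 1 kb around the start site the median CpG observed over expected was 0.691 for the 11 open Hox genes in Ctrl and 0.697 for the 28 others. Over all genes it was 0.725 at open start sites and 0.236 at those without a strong region. A start site was called CpG-rich at 50% GC and a CpG ratio of 0.6 or more, and 25 Hox genes met this. In Ctrl 8 of these 25, the distal Hoxa3 start among them, had a strong region, whereas 83.3% of all 9699 CpG-rich start sites did. The count was 9 after Oxali and 8 in each of the other lists, and the share of all CpG-rich start sites stayed between 83.0% and 83.6%. Of the 14 other Hox start sites 3 were open in Ctrl, against 30.0% of all others, and 5 after Oxali + IFNγ, against 35.3%. Polycomb marks were not measured here, and their part was not tested.

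**Figure D2:**
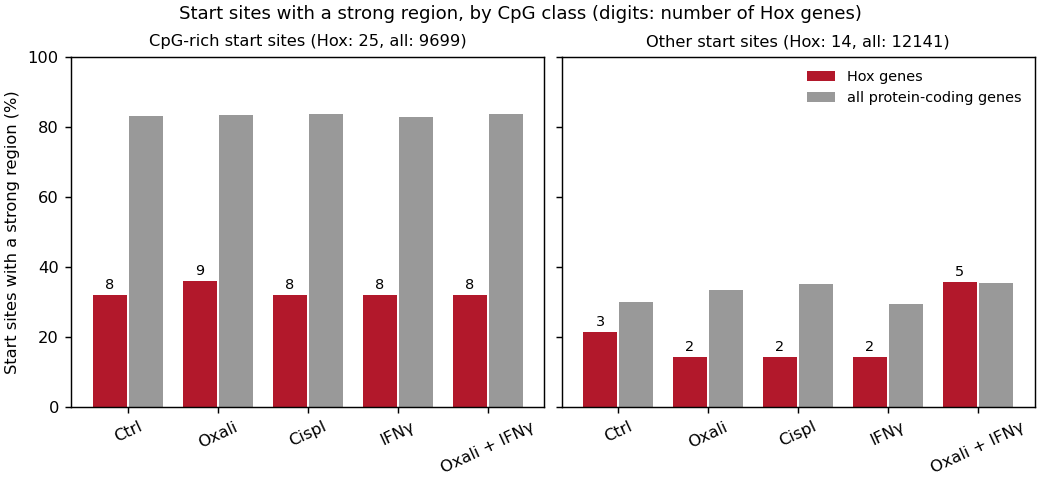
Share of start sites with a strong region (y axis, %) in the 5 lists (x axis), for CpG-rich start sites on the left and the others on the right. Red bars are Hox genes, with their number above each bar, and gray bars all protein-coding genes; at CpG-rich start sites 8 or 9 of 25 Hox genes are open against over 80% of all genes.

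RefSeq promoter sequences (GRCm38.p6, the mm10 assembly, from upstream of the start to just after it) were at hand for 22 of the 39 genes. The table has no entry for Hoxb13 and Hoxb9. Printed here are the open promoters with the highest levels among those whose window holds the start site used, and 2 closed promoters with dense CpG, which were picked after their values were seen, all 5′ to 3′ on the strand of the gene with each CG in capitals. The closed Hoxa5 and Hoxd13 windows hold 29 and 37 CG, and the open Hoxd9 and Hoxa3 windows 20 each.
Hoxd9, open, chr2:74697513-74697812, plus strand: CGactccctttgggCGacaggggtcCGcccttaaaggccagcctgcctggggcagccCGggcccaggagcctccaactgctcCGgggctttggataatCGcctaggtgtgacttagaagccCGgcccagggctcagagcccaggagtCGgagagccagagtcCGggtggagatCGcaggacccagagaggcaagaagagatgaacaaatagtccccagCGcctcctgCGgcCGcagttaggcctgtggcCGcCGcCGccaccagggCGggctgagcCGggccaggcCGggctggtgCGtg
Hoxa3 distal start, open, chr6:52213018-52213317, minus strand: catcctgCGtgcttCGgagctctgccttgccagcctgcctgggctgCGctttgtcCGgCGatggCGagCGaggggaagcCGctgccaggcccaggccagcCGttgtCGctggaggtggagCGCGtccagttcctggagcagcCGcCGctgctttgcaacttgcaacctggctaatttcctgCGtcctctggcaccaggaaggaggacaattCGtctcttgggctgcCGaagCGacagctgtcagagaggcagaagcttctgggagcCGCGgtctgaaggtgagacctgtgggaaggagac
Hoxa5, closed, chr6:52204538-52204837, minus strand: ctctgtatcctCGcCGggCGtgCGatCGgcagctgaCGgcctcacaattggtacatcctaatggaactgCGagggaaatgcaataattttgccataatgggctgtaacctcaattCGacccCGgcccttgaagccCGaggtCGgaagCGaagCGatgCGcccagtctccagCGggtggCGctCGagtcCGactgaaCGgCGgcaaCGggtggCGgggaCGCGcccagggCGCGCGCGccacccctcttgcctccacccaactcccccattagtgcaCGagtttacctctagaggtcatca
Hoxd13, closed, chr2:74667975-74668274, plus strand: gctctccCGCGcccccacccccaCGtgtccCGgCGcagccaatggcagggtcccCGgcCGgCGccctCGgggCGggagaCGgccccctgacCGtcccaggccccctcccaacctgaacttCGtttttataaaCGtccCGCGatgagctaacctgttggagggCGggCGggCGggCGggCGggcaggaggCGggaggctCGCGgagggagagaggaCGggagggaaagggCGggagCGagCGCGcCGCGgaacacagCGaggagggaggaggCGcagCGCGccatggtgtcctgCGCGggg
The GC content was 68.3% at Hoxd9 and 64.0% at Hoxa3 against 61.7% at Hoxa5 and 74.3% at Hoxd13. The 4 windows were chosen as described and do not stand for the others. Over 1 kb around the start site the median GC content was 60.8% for the 11 open Hox genes in Ctrl and 55.7% for the 28 others.

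All 16 Polycomb genes and all 8 Trithorax genes listed had a strong region at a coding start site in each of the 5 lists, where 57.6% to 61.7% of all genes had one. The median level of the Polycomb genes was 104.5 in Ctrl, 70.8 after Oxali, 63.6 after Cispl, 69.4 after IFNγ and 49.7 after Oxali + IFNγ. Ezh2, the methyltransferase of Polycomb complex 2, had 146 in Ctrl and 69.9 after Oxali + IFNγ, and Kmt2b, a Trithorax methyltransferase, had 251 and 116. Of the 9 PBX, MEIS and PKNOX partner genes 7 were open in Ctrl, Cispl, IFNγ and Oxali + IFNγ, with Meis1 among them. Meis3 was added in Oxali only, at a level of 3.02, and Pknox2 was closed throughout. Of the 8 ParaHox and flanking homeobox genes (Cdx1, Cdx2, Cdx4, Pdx1, Gsx1, Gsx2, Evx1, Evx2) none was open in Ctrl, Cispl, IFNγ or Oxali + IFNγ, and Pdx1 was in Oxali. These lists used any coding start site of a gene.

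Strong regions of Ctrl covered 9.43% of the Hoxa stretch, 7.91% of Hoxb (chr11:96192316-96370256), 4.75% of Hoxc (chr15:102919103-103038852) and 6.26% of Hoxd (chr2:74666310-74767142). In the whole genome the share was 2.12%. The clusters held 12.6 strong regions per 100 kb in Ctrl, against 4.34 in the genome, and 17.3 against 6.21 after Oxali + IFNγ. The local background at Hox regions was also above that elsewhere, with a median of 1.63 times the genome background in Ctrl against 1.07 over all strong regions.

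Hoxa, Hoxb and Hoxd held high regions and Hoxc did not. The median level of the strong regions in Ctrl was 34.5 in Hoxa, 21.5 in Hoxb and 22.3 in Hoxd but 3.79 in Hoxc, where the median of all strong regions was 7.58. The highest Hoxc region of any list, at chr15:102986704-102988013 upstream of Hoxc8, had a level of 18.5 in Ctrl, 18.0 after Oxali, 13.2 after Cispl, 18.1 after IFNγ and 15.6 after Oxali + IFNγ. Hoxc8 itself counted as open through another region, chr15:102989280-102989669, whose edge reached within 1 kb of its start. Of the 56 merged regions that were strong in Ctrl 10 had their summit within 1 kb of a start site. By annotation 17 lay in exons, 25 in introns and 14 between genes.

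**Figure D3:**
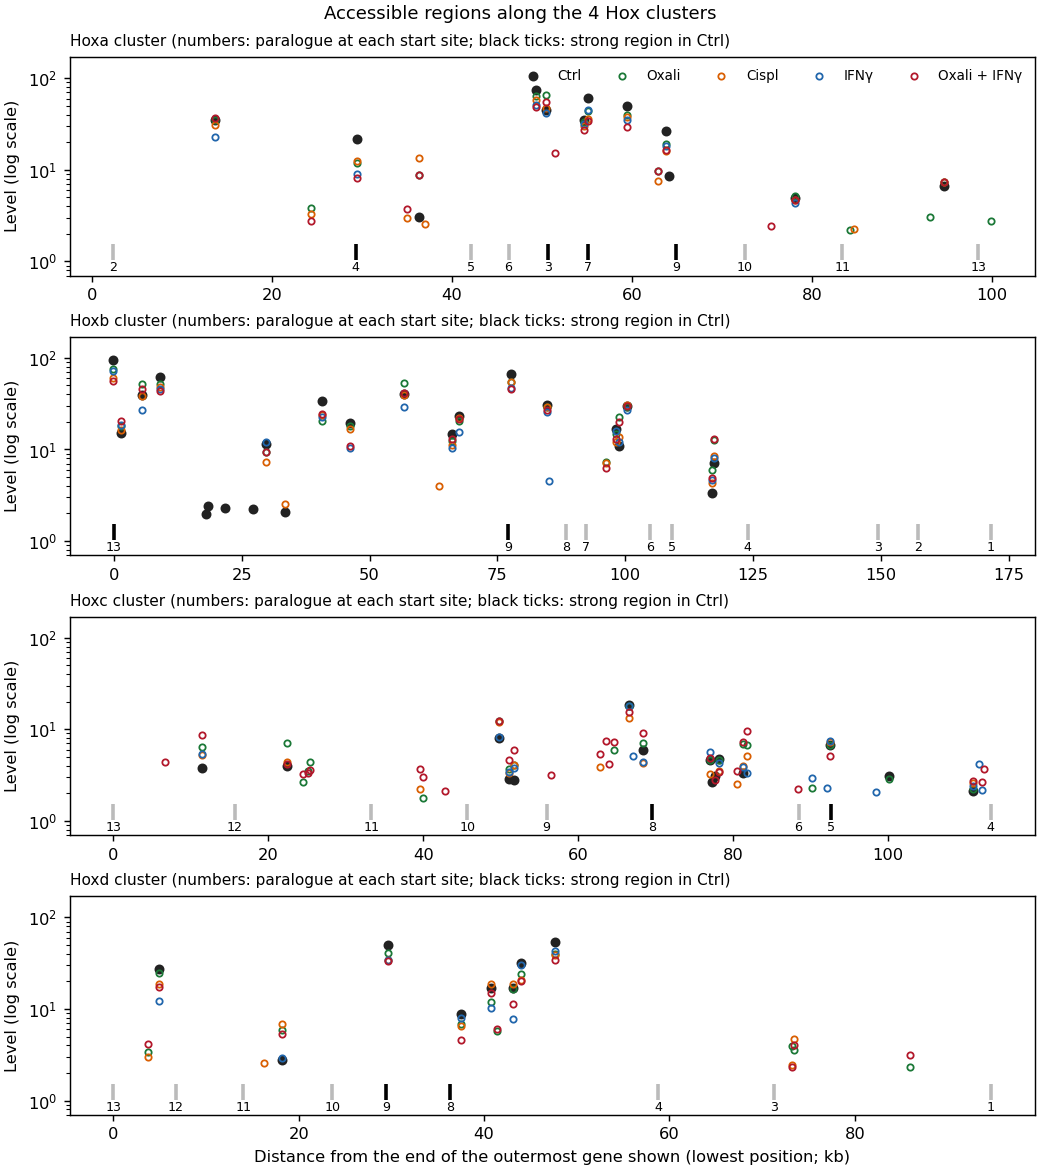
Level (y axis, log scale) of each region along the 4 clusters, plotted by distance in kb from the outer end of the cluster (x axis), with Hoxa from paralogue 2 on. Filled black points are Ctrl and open colored points the 4 treated lists, and ticks at the bottom mark start sites with their paralogue number; Hoxc regions all lie below 20, and no region lies beyond paralogue 4 of Hoxb.

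Sequence at the summits was searched on both strands for the CTCF core, a retinoic acid element with repeats 5 bases apart, and the elements spelled out here, 100 bp to each side in the 64 strong Hox regions of Ctrl and in all 118154. The E-box CACGTG, which MYC binds, was present in 8 Hox windows, or 12.5%, against 4.16% of all. The AP-1 element TGANTCA was in 6, or 9.38%, against 21.4%. The HOX-PBX element TGATNNAT was in 3 (4.69% against 6.68%) and the posterior HOX element CAATAAA in 3 (4.69% against 2.76%). The CTCF core was in 1 (1.56% against 5.81%). In 151-base windows of all 101 merged Hox regions the HOX-PBX element was in 6 (5.94% against 5.20%), so its direction turned, and the posterior HOX element in 2 (1.98% against 1.91%). The E-box was in 9 (8.91% against 3.08%) and the AP-1 element in 8 (7.92% against 19.2%) of those windows. Hox windows were richer in CpG, with a median ratio of 0.596 against 0.214, and its part in these shares was not tested.

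The only exact match to the CTCF core lay in the region upstream of Hoxb8, chr11:96278428-96279273, which is shown with the match in capitals. Sites that differ from the core were not counted, so the number of CTCF sites in the clusters is not known. The level of this region was 30.9 in Ctrl, 28.8 after Oxali, 29.2 after Cispl, 25.7 after IFNγ and 27.3 after Oxali + IFNγ. The log2 ratio to Ctrl was −0.10 under Oxali (−0.32 to 0.12) and −0.08 under Cispl (−0.29 to 0.13). It was −0.27 under IFNγ (−0.50 to −0.03) and −0.18 under Oxali + IFNγ (−0.39 to 0.03). The IFNγ interval lay below 0 and held the median of all regions, −0.23. Strong regions lay on both sides of it in all 5 lists, at the Hoxb9 start on one side and in an intron of Hoxb6 on the other, chr11:96294189-96295201, at a level of 30.0 in Ctrl.
Hoxb8 upstream, chr11:96278894-96279044, plus strand: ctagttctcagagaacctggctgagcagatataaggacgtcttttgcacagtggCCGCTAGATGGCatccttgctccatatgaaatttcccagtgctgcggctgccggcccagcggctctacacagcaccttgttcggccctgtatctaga

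Levels at open start sites were lower in the treated lists over the whole genome, and the Hox start sites are read against this. The median log2 ratio to Ctrl over the start sites with a summit in both lists was −0.46 under Oxali, −0.65 under Cispl, −0.55 under IFNγ and −0.89 under Oxali + IFNγ. Over the 9 Hox start sites of that kind it was −0.28, −0.56, −0.38 and −0.73, and without the distal Hoxa3 start −0.29, −0.59, −0.41 and −0.79 over 8. The 9 are those with a summit within 1 kb in all lists.

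Hoxa4 and the distal Hoxa3 start lay at opposite ends of the Hox start sites under Oxali and under Oxali + IFNγ. Under Cispl and IFNγ Hoxc5 was highest, at 0.09 and 0.13, with counting intervals that held 0. The log2 ratio at Hoxa4 was −0.89 under Oxali (95% counting interval −1.20 to −0.58), −0.81 under Cispl (−1.10 to −0.53), −1.29 under IFNγ (−1.66 to −0.93) and −1.41 under Oxali + IFNγ (−1.75 to −1.08). Among all start sites these stood at percentiles 3.53, 27.8, 0.840 and 9.73 of the ratios. The Hoxa4 interval for Cispl held the median of all start sites, −0.65, and those of the other treatments lay below theirs. At Hoxa3 the ratio was 0.53 under Oxali (0.37 to 0.69), 0.05 under Cispl (−0.11 to 0.22), −0.10 under IFNγ (−0.28 to 0.09) and 0.30 under Oxali + IFNγ (0.14 to 0.46), at percentiles 94.8, 89.4, 92.5 and 91.9. The Hoxb13 ratios stood between percentiles 52.8 (Cispl) and 74.2 (IFNγ), with a log2 ratio of −0.73 under Oxali + IFNγ. Its counting interval lay above the median of all start sites for Oxali, IFNγ and Oxali + IFNγ, and for Cispl it held that median, with a log2 ratio of −0.63 (−0.76 to −0.50).

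**Figure D4:**
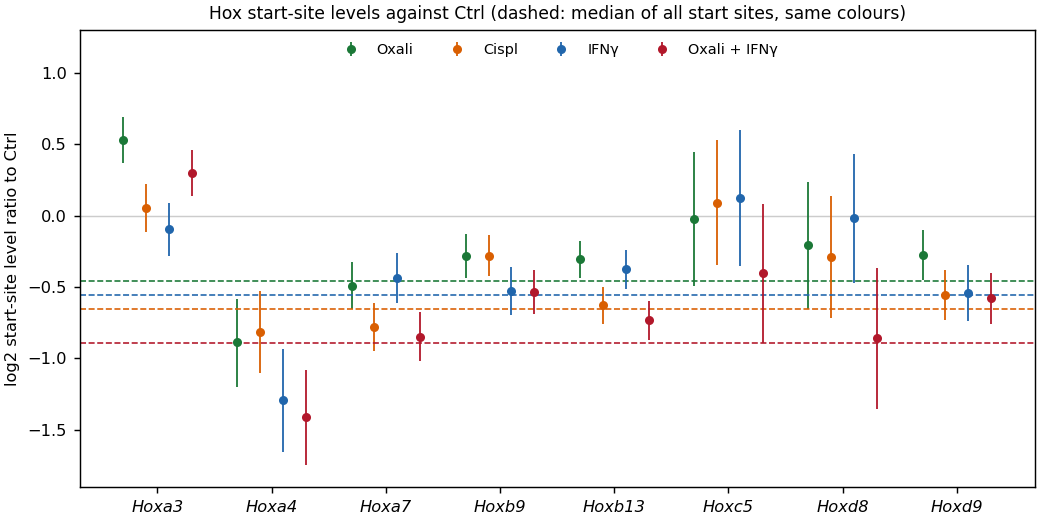
Log2 ratio of the start-site level to Ctrl (y axis) for 8 Hox genes with a summit in every list (x axis), colored by treatment with 95% counting intervals. Dashed lines are the medians over all start sites; Hoxa3, at its distal start, lies above its line in every treatment and Hoxa4 below it.

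In the clusters 47 regions were called in both the IFNγ list and Ctrl, and 51 in Ctrl and each of the other treated lists. Their median log2 level ratio was −0.05 under Oxali, −0.17 under Cispl, −0.21 under IFNγ and −0.20 under Oxali + IFNγ. Over all such regions it was 0.19, 0.13, −0.23 and 0.18. Centering each list on the regions called everywhere moved the zero by 0.15, 0.07, −0.25 and 0.14. The Hox medians were then −0.20, −0.24, 0.04 and −0.34, so the direction for IFNγ turned.

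The ratio went with the level in Ctrl, in the clusters as in the genome. Where the Ctrl level was under 10, the Hox median was 0.34 under Oxali, 0.23 under Cispl, 0.16 under IFNγ and 0.53 under Oxali + IFNγ, beside 0.47, 0.46, −0.08 and 0.50 over all regions. Where it was 10 or more, the Hox median was −0.21, −0.38, −0.44 and −0.42, beside −0.08, −0.22, −0.34 and −0.16. A faint Ctrl region enters this comparison only where the treated list also held a region.

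By cluster, the Hoxd median was −0.32 under Oxali, −0.46 under Cispl, −0.45 under IFNγ and −0.62 under Oxali + IFNγ over 8 regions. In the same order the Hoxa median was −0.13, −0.33, −0.44 and −0.38 over 11 to 13 regions and the Hoxb median −0.10, −0.08, −0.38 and −0.18 over 17 or 18. The Hoxc median was 0.26, 0.18, 0.16 and 0.34, over 11 to 13 regions. Apart from the region upstream of Hoxc8 at 18.5, the Hoxc regions compared had a Ctrl level under 10, where the medians over all regions were 0.47, 0.46, −0.08 and 0.50. In Hoxa 0 of 11 regions were higher with IFNγ than in Ctrl before centering, and the highest ratio there was −0.10, within the shift of −0.25.

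**Figure D5:**
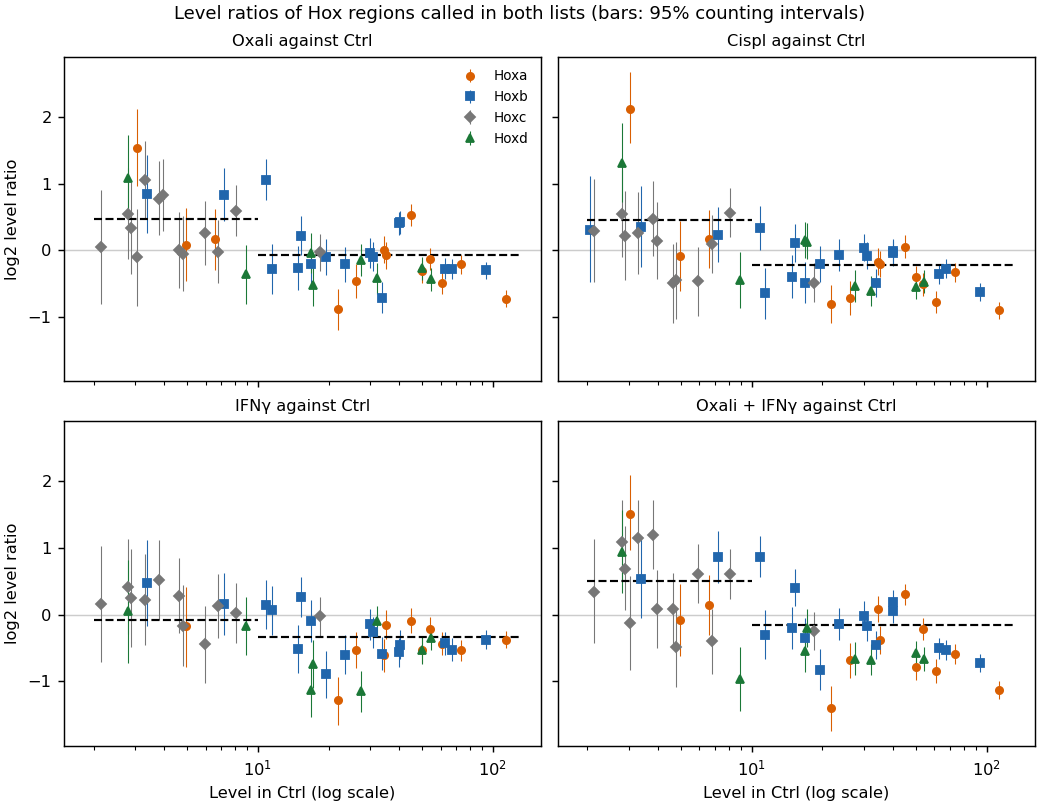
Log2 level ratio to Ctrl (y axis) of each Hox region called in both lists against its level in Ctrl (x axis, log scale), 1 panel for each treatment, with 95% counting intervals and 1 symbol per cluster. Dashed lines are the medians of all regions under and over a Ctrl level of 10. In each treatment most Hox regions under 10 lie above 0, and most over 10 lie below 0.

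Differences of 2-fold or more were few. With Oxali 4 of 51 Hox regions were at least 2-fold higher and 0 lower, where 14.6% and 0.745% of all regions were. With Cispl 2 were higher and 0 lower, against 11.3% and 1.7%. With IFNγ 0 of 47 were higher and 3 lower, against 0.521% and 2.67%. With Oxali + IFNγ 4 were higher and 2 lower, against 16.1% and 5.66%.

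The largest difference upward was at 1 place in the Hoxa cluster, chr6:52198434-52199176. It lies 5843 bp downstream of the Hoxa5 start, between Hoxa5 and Hoxa4, in an intron of a long Hoxa3 transcript. Its level was 3.05 in Ctrl, 8.78 after Oxali, 13.3 after Cispl and 8.68 after Oxali + IFNγ, and no region was listed in IFNγ. All 3 lists with a platinum drug lay above Ctrl. The log2 ratio was 1.53 under Oxali (0.97 to 2.11), 2.13 under Cispl (1.61 to 2.68) and 1.51 under Oxali + IFNγ (0.96 to 2.09). Its summit window held none of the 6 elements searched, and its sequence is given for that reason and as the site of the largest difference.
Hoxa5 downstream, chr6:52198669-52198819, plus strand: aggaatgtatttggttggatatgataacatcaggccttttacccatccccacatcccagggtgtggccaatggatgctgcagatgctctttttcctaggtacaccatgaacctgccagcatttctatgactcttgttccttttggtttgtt

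The next with Oxali and Cispl was an exonic region of Hoxd11, chr2:74686348-74686728, which had a level of 2.80 in Ctrl, 5.94 after Oxali, 6.90 after Cispl, 2.91 after IFNγ and 5.35 after Oxali + IFNγ. The log2 ratio for IFNγ was 0.06, and the 3 lists with a platinum drug were the high ones. A region in an intron of Hoxb6, chr11:96292797-96293583, had 10.9 in Ctrl, 22.6 after Oxali, 13.7 after Cispl, 12.06 after IFNγ and 19.8 after Oxali + IFNγ. Here the 2 lists with oxaliplatin were the high ones. Among faint Hoxc regions, the one near Hoxc12, chr15:102931793-102932920, had 3.79 in Ctrl, 6.48 after Oxali, 5.23 after Cispl, 5.40 after IFNγ and 8.68 after Oxali + IFNγ. One in Hoxc6, chr15:103002235-103002517, had 3.30 in Ctrl, 6.83 after Oxali, 3.92 after Cispl, 3.85 after IFNγ and 7.28 after Oxali + IFNγ. An exonic region of Hoxc10, chr15:102970459-102971735, had 8.07 in Ctrl, 12.2 after Oxali, 11.9 after Cispl, 8.21 after IFNγ and 12.2 after Oxali + IFNγ, so all 3 lists with a platinum drug lay above the other 2. With IFNγ the largest differences upward, near Hoxc12, Hoxb4 and Hoxc9, were log2 ratios of 0.51, 0.47 and 0.42, whose counting intervals all held 0.

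Among the largest differences downward were those at the Hoxa4 and Hoxa7 start sites given above, at a region between Hoxb13 and Hoxb9 and in Hoxd. With Oxali the region chr11:96234174-96235428 went from 33.7 to 20.6, a log2 ratio of −0.71 (−0.95 to −0.48). With Oxali + IFNγ an exonic region of Hoxd8, chr2:74704617-74705986, went from 8.90 to 4.57. With IFNγ the region chr2:74672422-74673625 upstream of Hoxd12 went from 27.4 in Ctrl to 12.4, a log2 ratio of −1.15 (−1.46 to −0.84). It had 24.8 after Oxali, 18.8 after Cispl and 17.4 after Oxali + IFNγ, so IFNγ alone was lowest. The region chr2:74711058-74711594 downstream of Hoxd8 had 16.8 in Ctrl, 16.3 after Oxali, 18.7 after Cispl, 7.69 after IFNγ and 11.5 after Oxali + IFNγ. Both lists with IFNγ lay below the others there.

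Regions present in a treated list and absent from Ctrl were counted next. Of 78 strong Hox regions in Oxali 19 overlapped no Ctrl region, or 24.4%, against 32.5% of all strong regions. In Cispl 19 of 74 did, 25.7% against 37.3%, and in IFNγ 5 of 61, 8.20% against 12.9%. In Oxali + IFNγ 34 of 88 did, 38.6% against 38.4%. Of 64 strong Ctrl regions 5 had no counterpart in Oxali, 7 none in Cispl, 9 none in IFNγ and 5 none in the combination. These are 7.81%, 10.9%, 14.1% and 7.81%, against 9.11%, 5.9%, 15.8% and 7.59% of all. Of these the share lost with Cispl stood furthest above that of all regions. It was 13.4% against 6.86% with all deposited regions, 10.4% against 5.9% within gene windows and 12.5% against 6.55% where a region had to be covered over most of its length. At a q-value limit of 1e-05 it was 5.36% against 3.46%, and at matched depth and a common p limit 4 of 61, or 6.56%, against 5.57%.

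Gained regions were faint, with median levels of 2.98 to 4.16, and some were pieces beside a region of Ctrl. Within 200 bp of a Ctrl region lay 3 of 19 after Oxali, 3 of 19 after Cispl, 2 of 5 after IFNγ and 7 of 34 after Oxali + IFNγ. With Oxali the highest were a piece in the Hoxa9 intron at 9.76 (110 bp from Ctrl), a region at 3983 bp from the Hoxb7 start site at 7.27 and one at −6629 bp from that of Hoxc6 at 6.65. With Cispl the highest included the Hoxa9 piece at 7.56 and the Hoxb7 region at 7.12. With Oxali + IFNγ they included a piece at −751 bp from the Hoxa3 start site at 15.3 and the Hoxa9 piece at 9.76. With IFNγ the highest were near Hoxc8 at 5.09, Hoxb8 at 4.57 and Hoxc4 at 4.16.

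The Hoxc cluster took 18 of the 34 regions gained with Oxali + IFNγ. These were 56.3% of the 32 strong Hoxc regions in that list, where 38.4% of all strong regions were gained. The share was 31.6% in Hoxa, 14.3% in Hoxb and 43.8% in Hoxd. Several of the 18 lay close together upstream of Hoxc8. Strong Hoxc regions in that list were also fainter, with a median level of 4.30 against 6.59 over all strong regions. Hoxc took 6 of 19 with Oxali, 5 of 19 with Cispl and 4 of 5 with IFNγ, which were 28.6%, 25.0% and 22.2% of its strong regions against 32.5%, 37.3% and 12.9% of all. Strong regions there numbered 19 in Ctrl, 21 after Oxali, 20 after Cispl and 18 after IFNγ. The start sites open in the combined list alone were those of Hoxc4 at a level of 3.72, Hoxc6 at 2.25 and Hoxc9 at 3.18. Their pileups were 48, 29 and 41 over a background of 12.9. The lowest Hox level in that list was 2.09, and the pooled list does not show whether both libraries held them. The Hoxc9 start used lies 4621 bp upstream of its start codon.

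The regions lost were faint too. In all 4 treatments the highest was the Hoxa9 piece described above, at 8.65. With IFNγ the next were a region 3758 bp downstream of the Hoxa13 start, chr6:52257016-52257405, at 6.59 in Ctrl, and one near Hoxc12 at 3.95. The Hoxa13 region was called in the other 3 treated lists, with levels of 7.36 after Oxali, 7.41 after Cispl and 7.28 after Oxali + IFNγ. With the other treatments the next were near Hoxc8 (Oxali), near Hoxc8 and Hoxc5 (Cispl) and near Hoxc5 (Oxali + IFNγ), all at 3.05. A pair of faint regions between Hoxb13 and Hoxb9 were lost in every treated list.

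One gained site carried an uncommon element. In an intron of Hoxd3, chr2:74741346-74741628, a region was called in Oxali at 3.90, in Cispl at 2.47 and in Oxali + IFNγ at 2.32, and in neither Ctrl nor IFNγ. The nearest Ctrl region was 24843 to 24922 bp away. Its 151-base summit window holds the retinoic acid element, which 0.0862% of the 211107 windows of that length held, 182 in all and 1 of the 101 in the clusters. Retinoic acid acts on Hox genes through such elements in the embryo. It also holds the HOX-PBX element, which 5.20% of windows held. In the same intron a second region, chr2:74741687-74742253, was called in the same lists, at 3.55, 4.65 and 4.03. Its summit window held none of the elements searched. The matches in the first window are in capitals, and a match does not show that a protein was bound.
Hoxd3 intron, chr2:74741420-74741570, plus strand: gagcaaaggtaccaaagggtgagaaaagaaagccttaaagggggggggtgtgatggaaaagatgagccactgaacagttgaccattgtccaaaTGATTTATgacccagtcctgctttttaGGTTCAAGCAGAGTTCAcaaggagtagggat

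Of 14 non-coding genes of the clusters 3 had a strong region at a start site in Ctrl, 6 after Oxali, 5 after Cispl, 3 after IFNγ and 4 after Oxali + IFNγ. Of all 11995 non-coding genes of the same annotated types 28.6%, 32.4%, 33.7%, 28.2% and 34.5% had one, so the counts in the clusters were near this background. Mir196a-2 and Mir615 were among the 3 in Ctrl. Hotair, which lies in the Hoxc cluster and is known to act with Polycomb, had no region at its start in any list, though 3 faint regions inside it were called in Oxali and in Oxali + IFNγ.

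The clusters also encode microRNAs that repress Hox messages, and they are shown by seed, bases 2 to 8, in capitals. miR-10a and miR-10b share one seed and miR-196a and miR-196b another.
miR-10a-5p: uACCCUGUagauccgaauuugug
miR-10b-5p: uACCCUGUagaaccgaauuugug
miR-196a-5p: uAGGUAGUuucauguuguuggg
miR-196b-5p: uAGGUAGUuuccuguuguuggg
miR-615-3p: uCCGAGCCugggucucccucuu
The sequences are from RefSeq (GRCm38.p6). In Ctrl the nearest region lay 5157 bp from miR-10a-5p (chr11:96317186-96317208) and 9571 bp from miR-10b-5p (chr2:74726074-74726096). It lay 3573 bp from miR-196b-5p and 3140 bp from the Hoxb copy of miR-196a-5p, but 399 bp from the Hoxc copy, Mir196a-2. The level within 1 kb of Mir196a-2 was 2.80 in Ctrl, 4.08 after Oxali, 4.07 after Cispl, 3.74 after IFNγ and 5.97 after Oxali + IFNγ. The log2 ratio for Oxali + IFNγ was 1.09 (0.49 to 1.72), and the counting intervals of the other 3 treated lists held 0. miRNA start sites are those of the hairpin, and their primary transcripts may start elsewhere.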

How the data were processed

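ATAC-seq of 10 Myc-CaP libraries (5 groups of 2, from the titles) was used as 5 deposited MACS2 lists, 1 per group. Per the study's methods and the labels, the authors trimmed reads with cutadapt, aligned them to mm10 with Bowtie2 2.2.8, filtered them with SAMtools, removed duplicates and mitochondrial reads, pooled both libraries of a group, called peaks with MACS2 2.1.0 and removed blacklisted peaks. The deposited fold is a ratio, pileup plus 1 over local background plus 1. As deposited, each summit also has a Poisson −log10 p and its adjusted form, a −log10 q-value. For single libraries the study's methods give a minimum number of read pairs, and the lists do not show the depth of each.

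From these, the pileup and background of every summit were solved (100% recovered) and summits of 1 interval joined. A list's genome background is its lowest background, proportional to its reads. Regions were merged over lists by 1 bp of overlap. A gene's start site was that of its principal coding transcript nearest to the start codon, since the annotated spans of Hoxc4, Hoxc5, Hoxd3 and Hoxd4 begin far upstream of it. For Hoxa3 the only principal transcript starts far upstream, and its nearer start was tried as an alternative added after seeing the data. Gained meant strong in the treated list with no overlap in Ctrl, and lost the mirror case. Intervals of ratios are exact binomial intervals at 95% of both pileups and cover counting error only, since reads at a summit are not independent. The genome was RefSeq GRCm38.p6, the mm10 assembly. Genes named were the 8 with the highest start-site level in Ctrl, paralogue 13, the 3 largest rises and falls per treatment among regions strong in both lists, the 3 highest gained and lost, and those with no region. Some genes that the rule names are not reported here. The rule also named promoters that the sequence table lacks, so others were printed. The members, gene lists (partners, Polycomb, Trithorax, ParaHox, non-coding, markers) and elements were chosen with earlier results of these data known. Counts per replicate, on which the study tested differences, were not analysed here. Work used Python 3.11.15, pandas 2.3.3 and scipy 1.17.1, and overlap and recovery steps were tested on simulated data.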

Additional observations from a re-analysis of the deposited data

How the results depend on the processing

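Each list pools both libraries, so leaving out a library was not possible. No paired analysis was possible because no list keeps the 2 libraries of a group apart. Within 2 kb of the start site the Oxali count of open Hox genes was 17 in place of 11 (61.4% of all genes), and the other lists stayed within 1.5 times. Counting any coding start site, chosen after seeing the data, kept all 5 counts within 1.5 times. Moving Hoxa3 to its nearer coding start, also chosen after seeing the data, kept all 5 counts within 1.5 times. With a q-value limit of 1e-05, gained regions numbered 12 with Oxali, 12 with Cispl and 3 with IFNγ, or 17.4%, 18.2% and 5.56% against 26.7%, 30.9% and 6.67% of all regions. Lost ones were 2, 3 and 2 with Oxali, Cispl and the combination, or 3.57%, 5.36% and 3.57% against 5.77%, 3.46% and 4.93%. With all deposited regions, 8 were lost with Oxali, 8 with Oxali + IFNγ and 8 gained with IFNγ, or 11.9%, 11.9% and 12.5% against 10.4%, 8.62% and 15.2%. At matched depth 3 were lost with Oxali, 4 with Cispl and 3 with the combination, or 4.92%, 6.56% and 4.92% against 8.62%, 5.57% and 7.39%. Within gene windows 3 were lost with Oxali and 3 with Oxali + IFNγ, 6.25% each against 9.11% and 7.59%. Requiring a region to be covered over most of its length kept every count within 1.5 times. Under centered scaling the median log2 ratio was −0.20 (Oxali), −0.24 (Cispl) and −0.34 (the combination), and that of IFNγ turned to 0.038. By the deposited fold it was −0.10 with Oxali and −0.20 with Cispl, and by the mean over summits −0.13 with Cispl. At a ratio of 1.5, 9 regions were higher and 3 lower with Oxali, 7 lower with Cispl, 8 lower with IFNγ, and 10 higher and 12 lower with Oxali + IFNγ, where 29.2%, 7.68%, 12.0%, 18.4%, 30.4% and 14.3% of all regions were. Under centered scaling 1 was at least 2-fold higher and 1 lower with Oxali and 1 lower with IFNγ, against 11.0%, 1.75% and 0.605% of all. By the deposited fold 2 were higher with Oxali, 1 lower with IFNγ, and 2 higher and 1 lower with Oxali + IFNγ, against 9.40%, 1.76%, 10.1% and 1.33%. The cause of these shifts was not tested.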
